A study of Rattus norvegicus with 399 samples.

Results

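The striated muscle genes Myh7, Myl2, Tcap, Tnnt1, Nol3, Mef2c and Ppp1r3a were followed in rats given 1,2-dichlorobenzene (1,2-DCB) or 1,4-dichlorobenzene (1,4-DCB). They are 7 of the 2603 gene symbols measured, taken by symbol, each with 1 probe. They were picked from muscle genes by their measured log2 differences and calls at the highest concentrations, mainly in heart, so the values in those comparisons describe them and test nothing. Female Sprague-Dawley rats, 9 weeks old by the labels, gave heart, kidney, liver, lung and ovary on study day 5. Rats received 1,2-DCB at 1, 10, 30, 100, 250 or 500 ppm, or 1,4-DCB at 1, 10, 50, 150, 400 or 800 ppm. Each compound had its own controls at 0 ppm. In heart every group was complete, with 10 control and 5 exposed rats, 80 libraries in all. The only treatment the labels give the controls is a concentration of 0 ppm, and no source used here gives the route of exposure. The chlorine atoms sit on neighbouring carbons of the benzene ring in 1,2-DCB and on opposite carbons in 1,4-DCB. The assay, TempO-Seq with the Rat S1500+ panel, ligates a pair of short detector oligonucleotides on a chosen stretch of a transcript and counts the ligated product. The unit of level is CPM, a count per 1e6 counts of its library after TMM scaling within a tissue and compound.

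Striated muscle contracts when myosin heads in the thick filament pull on the thin filament, which the troponin complex switches on when calcium arrives. The rodent ventricle runs mainly on the fast alpha myosin heavy chain of Myh6, and the slow beta chain of Myh7 belongs to fetal heart and slow skeletal fibres and is a classical marker of a loaded or failing adult rodent heart. Myl2 encodes the regulatory light chain of the ventricle, Tnnt1 the troponin T of slow skeletal muscle, and Tcap (telethonin) a Z-disc protein that caps the ends of titin. Nol3, also called ARC, is a caspase recruitment domain protein of muscle that restrains cell death. Mef2c is a transcription factor of muscle and other tissues, and Ppp1r3a targets protein phosphatase 1 to glycogen in striated muscle. The sources used here do not say whether the Myh7 probe separates Myh7 from its close neighbour Myh6. Myh6 had its own probe, and its median CPM in control hearts was below the lowest Myh7 value there. Levels of different probes share no scale, so this does not rank the alpha and beta chains. The change of Myh6 with exposure is not described here, and a part of Myh6 in the Myh7 signal was not tested.

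Heart libraries held 3.87 M to 20.7 M counts (M, 1e6), and those of the other tissues up to 69.8 M. No molecular identifiers were counted, so reads are not independent molecules and depth limits counting error only. The label of heart was borne out by the markers: Actc1, Csrp3 and Myl3 had medians of 4066, 2462 and 1667 CPM in control hearts and 4.34 CPM or less in control kidney, liver, lung and ovary. Markers of atrial muscle were not among the probes. Myl2 alone took 32.6% ± 1.9 (SD, n = 10) of all counts in the 1,2-DCB control hearts, so its level bears on every CPM. A pair of hearts of the 1,2-DCB group at 1 ppm stood apart, with Myl2 at 164645 CPM in rat F101 and 55085 CPM in F102 against 252063 to 401107 CPM in the 38 others of that compound. Col3a1, a collagen of fibroblasts, was at 4788 and 2793 CPM in them, above the 337 to 2764 CPM of the others. Hepatocyte transcripts (Alb, Fga and Apoa1 summed) reached 1543 CPM in control heart F1 and 1316 CPM in control heart F7 of the 1,4-DCB set. Without F101 and F102, 6 of the 7 genes were called at 500 ppm of 1,2-DCB, where more probes in all were called than with them. Without F1 and F7 the count at 800 ppm of 1,4-DCB was 4 in place of 5, where fewer probes in all were called. These comparisons are treated as used in choosing the genes, so nothing is read from these counts.

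In heart at the highest concentration of either compound, Tnnt1, Tcap and Nol3 were at higher levels than in controls, and Mef2c and Ppp1r3a were higher by less. Myh7 was 3.95-fold its control level at 500 ppm of 1,2-DCB and close to it at 800 ppm of 1,4-DCB, while Myl2 was near its control level in both. Against controls, 6 of the 7 genes were called higher at 500 ppm of 1,2-DCB and 5 at 800 ppm of 1,4-DCB, and none lower, at an adjusted p below 0.05 in edgeR's quasi-likelihood test. Of all probes tested, 5.16% were called higher and 6.79% lower at 500 ppm, and 3.07% higher and 3.80% lower at 800 ppm. As these comparisons are treated as used in choosing the genes, nothing is read from those counts or from the medians that follow. The median log2 difference of the 7 genes was 0.83 at 500 ppm, beside -0.02 over all probes tested, and 0.26 at 800 ppm, beside -0.01.

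Myh7, the slow myosin heavy chain, was at 2835, 4066, 5684, 6063 and 8685 CPM in the 5 hearts at 500 ppm of 1,2-DCB. Its controls ran from 715 to 2265 CPM with a median of 1371. Every exposed heart was above every control, and the log2 difference was 1.98 ± 0.41 (SE), or 5467 ± 2216 CPM (SD, n = 5) against 1383 ± 513 (SD, n = 10). Hearts at 800 ppm of 1,4-DCB were at 1395, 1616, 2356, 3012 and 3230 CPM. All 5 lay within the control range of 609 to 4147 CPM (median 1707), and the log2 difference was 0.23 ± 0.37. Counted from the highest log2 difference, Myh7 stood 6th of 2092 probes tested at 500 ppm of 1,2-DCB and 280th of 2054 at 800 ppm of 1,4-DCB. The genes were picked by such differences, so nothing is read from these ranks.

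Myl2, the regulatory light chain of the ventricle, stayed among its controls. Hearts at 500 ppm of 1,2-DCB were at 292690 to 358974 CPM, all inside the control range of 252063 to 401107. With 1,4-DCB at 800 ppm they were at 349567 to 373434 CPM, inside a control range of 314265 to 449780. The log2 differences were -0.00 ± 0.19 and 0.03 ± 0.07.

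Tnnt1, the slow skeletal troponin T, was a low transcript in heart. At 500 ppm of 1,2-DCB it was at 6.80, 14.72, 16.39, 20.99 and 25.66 CPM, and its controls ran from 4.11 to 11.5 CPM (median 6.38). Rat F601, at 6.80 CPM, stayed among the controls while the other 4 hearts were above all of them, and the log2 difference was 1.304 ± 0.252. At 800 ppm of 1,4-DCB it was at 7.20, 8.41, 8.58, 9.07 and 24.4 CPM against 3.13 to 6.96 CPM in controls (median 4.92). All 5 hearts were above the controls, but rat F604 stood far above its group. The log2 difference was 1.16 ± 0.22 with that rat and 0.68 without it.

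Tnnt1 also marks slow skeletal fibres, so skeletal muscle markers are given beside it. Heart F604 at 800 ppm had Casq1 at 414 CPM and Tnnt3 at 9.80 CPM, against 171 to 495 and 7.52 to 11.03 CPM in the other hearts of its group, and the 8 other skeletal muscle probes summed to 1.68 CPM there. In the group as a whole, Casq1 and Tnnt3 ran from 171 to 495 and 7.52 to 11.03 CPM against 161 to 479 and 4.47 to 8.51 CPM in controls. Those 8 probes summed to 1.68 to 3.74 CPM in the exposed hearts and 0.932 to 4.67 CPM in the controls. At 500 ppm of 1,2-DCB the sum was 2.53 to 4.58 CPM against 1.41 to 3.25 CPM. Casq1 was at 77.3 to 200.6 CPM there, each heart below the controls at 205.6 to 298.9 CPM, and Tnnt3 was at 4.72 to 9.66 against 5.78 to 11.18 CPM. Tpm2 was at 35.95 to 65.5 against 24.4 to 58.9 CPM. The part of slow skeletal fibres in Tnnt1 was not tested. Tnni2, the fast skeletal troponin I, had a median of 0 in control hearts.

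Tcap, the titin cap of the Z-disc, was at 136.4, 139.2, 171.7, 201.2 and 220.6 CPM at 500 ppm of 1,2-DCB. Its controls ran from 55.2 to 148.9 CPM (median 96.3), so 3 of the 5 hearts were above every control. With 1,4-DCB at 800 ppm the 5 hearts were at 118.5, 128.3, 133.1, 144.4 and 153.4 CPM, all above the controls at 42.5 to 89.2 CPM (median 63.8). The log2 differences were 0.85 ± 0.17 and 1.09 ± 0.17.

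**Figure D1:**
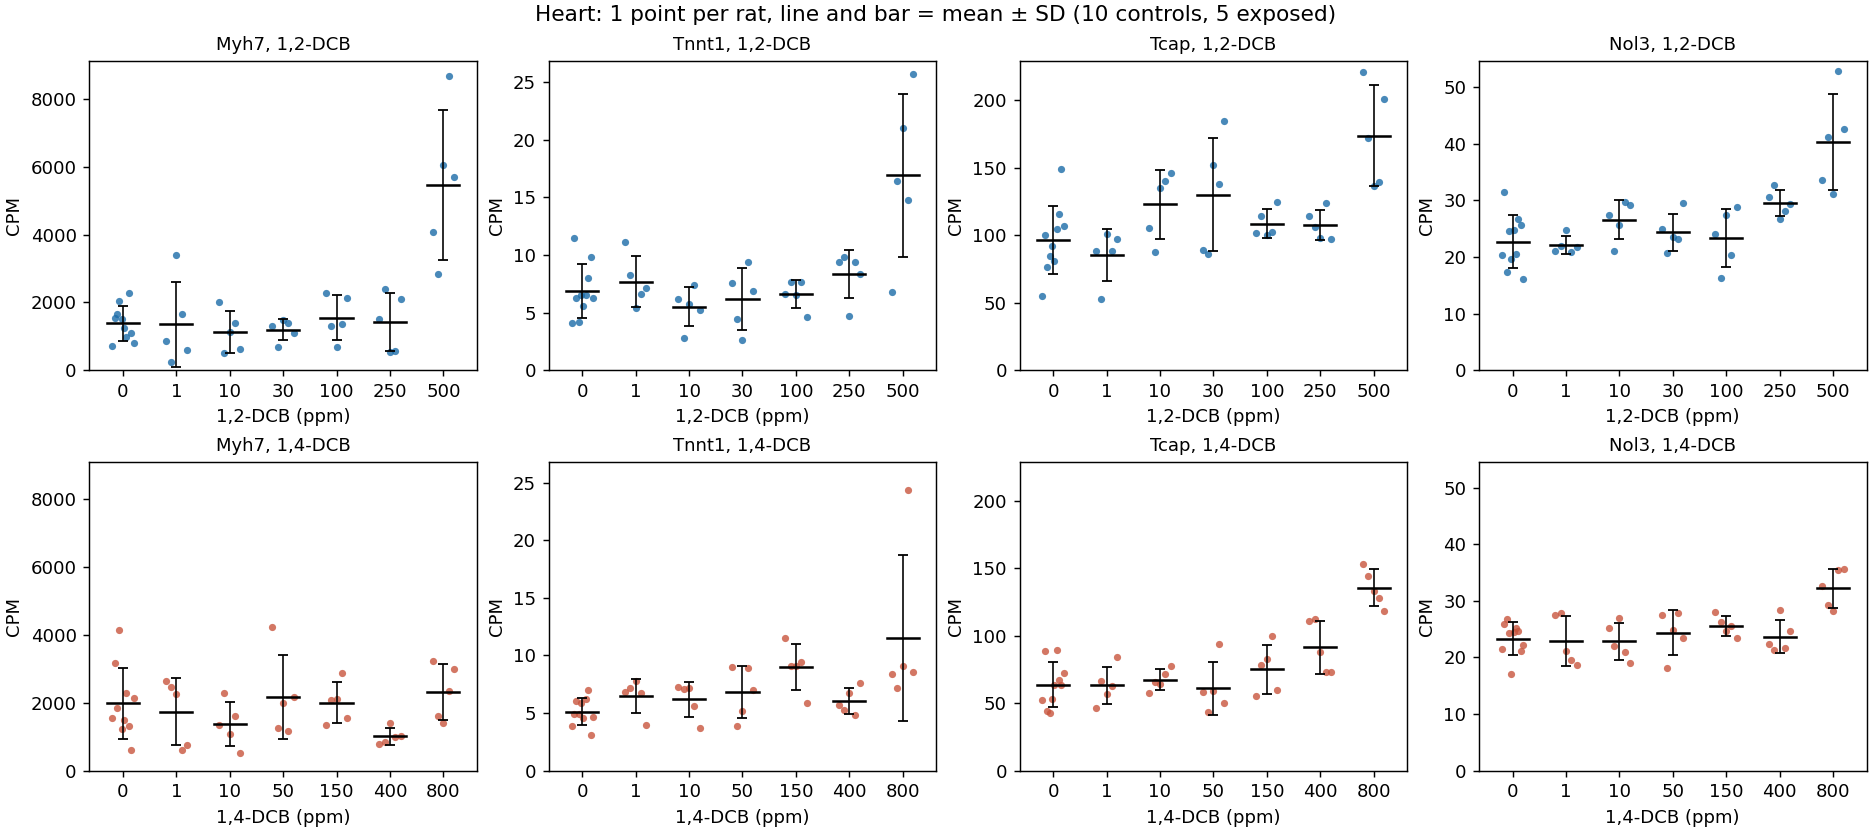
CPM of Myh7, Tnnt1, Tcap and Nol3 in heart (vertical axes) by concentration in ppm (horizontal axes), with 1,2-DCB above and 1,4-DCB below. Points are rats, lines and bars the mean ± SD of 10 controls or 5 exposed rats. All 5 Myh7 points of a group lie above every control at 500 ppm of 1,2-DCB and in no other group, and a single Tnnt1 point at 24.4 CPM stands above the rest at 800 ppm of 1,4-DCB.

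Nol3, the apoptosis repressor, was at 31.2, 33.6, 41.3, 42.6 and 52.8 CPM at 500 ppm of 1,2-DCB. The controls ran from 16.03 to 31.5 CPM (median 22.5), and 4 of the 5 hearts were above them all. Hearts at 800 ppm of 1,4-DCB were at 28.2, 29.2, 32.6, 35.5 and 35.6 CPM, all above the controls at 17.03 to 26.9 CPM (median 24.4). The log2 differences were 0.83 ± 0.13 and 0.46 ± 0.11.

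Mef2c, the transcription factor, was at 98.3, 101.4, 117.1, 118.3 and 124.1 CPM at 500 ppm of 1,2-DCB against 80.7 ± 12.6 CPM (SD, n = 10) in controls (lowest 62.9, median 78.9). Its log2 difference was 0.47 ± 0.09. At 800 ppm of 1,4-DCB it was at 80.2, 89.9, 91.75, 100.2 and 101.1 CPM against 63.7 to 91.7 CPM (median 78.2), a log2 difference of 0.26 ± 0.08. In both groups 3 of 5 hearts were above every control. Without control hearts F1 and F7, which carried hepatocyte transcripts, the difference at 800 ppm was 0.23 and was not called.

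Ppp1r3a, the glycogen-targeting subunit, varied little among controls. It was at 185, 195, 197, 213 and 241 CPM at 500 ppm of 1,2-DCB, each above the controls at 161 to 181 CPM (median 167), with a log2 difference of 0.28 ± 0.06. At 800 ppm of 1,4-DCB it was at 155.5, 159.2, 162.3, 165.6 and 172.6 CPM against 142.9 ± 10.0 CPM (SD, n = 10) in controls (median 142.6, highest 161.6), a log2 difference of 0.19 ± 0.06. At 800 ppm the calls of Mef2c and Ppp1r3a were both lost without exposed rat F601, F602, F603 or F605 or control F7, which left 3 of the 5 genes called. The call of Ppp1r3a was also lost with no filter and with totals without Myl2.

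**Figure D2:**
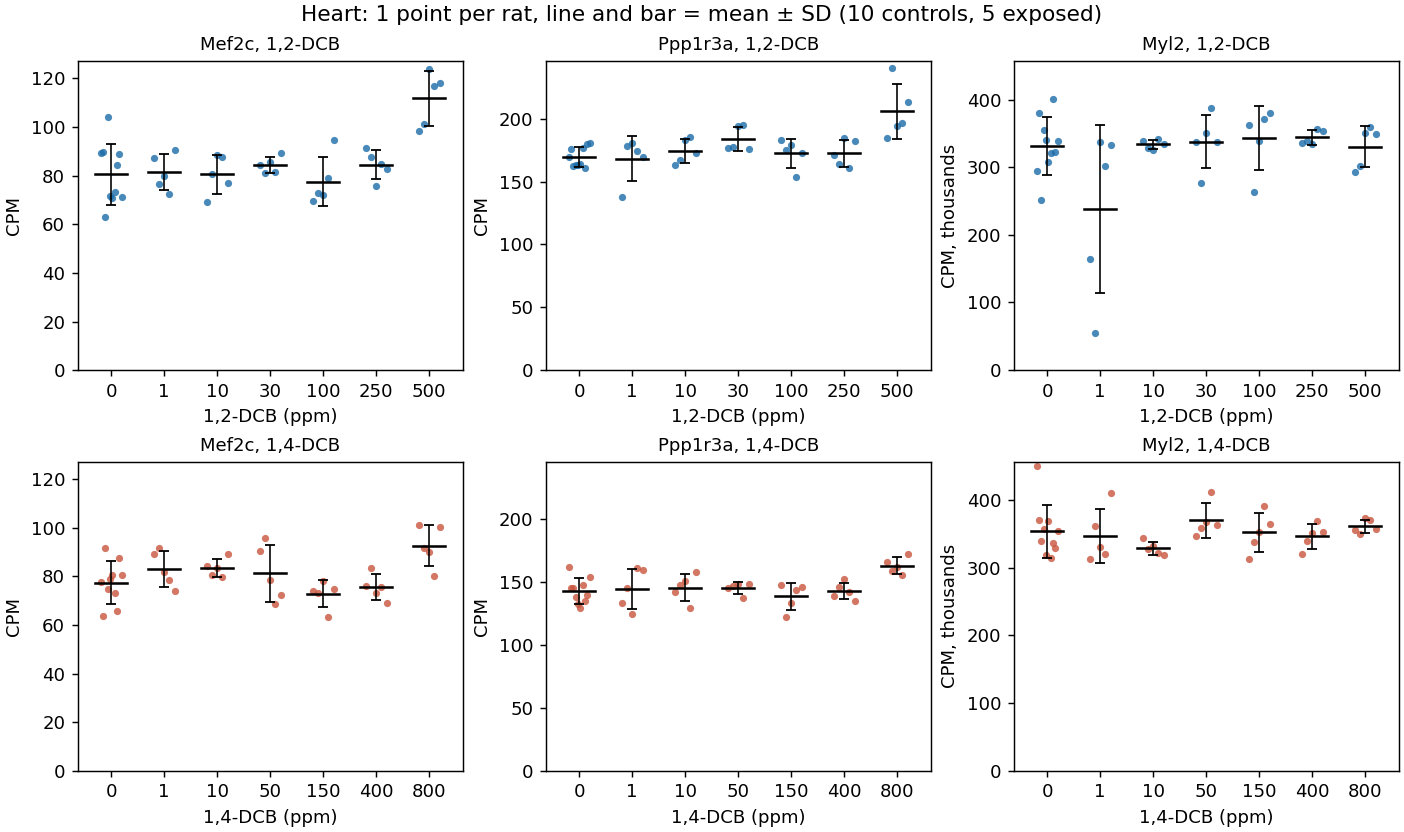
CPM of Mef2c, Ppp1r3a and Myl2 in heart by concentration in ppm, with 1,2-DCB above and 1,4-DCB below, 1 point per rat with the mean ± SD (the Myl2 axis is scaled down as its label says). Mef2c and Ppp1r3a have their highest mean in the last group of each row, and the Myl2 points of rats F101 and F102 fall to 164645 and 55085 CPM at 1 ppm of 1,2-DCB.

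Because Mef2c is a transcription factor with a known recognition sequence, the sequence ahead of 2 genes that were higher beside it is shown. RefSeq's table for the rat assembly GRCr8 held a promoter window, 250 bases before to 50 after the gene's start, for 3 of the 7 genes, Myh7, Tnnt1 and Ppp1r3a. Below are the 250 bases before the start of Ppp1r3a (chr4:43946237-43946486, minus strand) and of Tnnt1 (chr1:78348785-78349034, plus strand), 5′ to 3′. Capitals mark a match to a loose form of the MEF2 motif (CTA, any 4 bases, TAG).
Ppp1r3a: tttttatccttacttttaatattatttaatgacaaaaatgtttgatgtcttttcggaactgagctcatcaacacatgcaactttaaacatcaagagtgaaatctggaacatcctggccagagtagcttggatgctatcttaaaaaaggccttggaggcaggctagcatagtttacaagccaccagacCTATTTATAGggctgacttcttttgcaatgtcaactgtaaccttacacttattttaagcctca
Tnnt1: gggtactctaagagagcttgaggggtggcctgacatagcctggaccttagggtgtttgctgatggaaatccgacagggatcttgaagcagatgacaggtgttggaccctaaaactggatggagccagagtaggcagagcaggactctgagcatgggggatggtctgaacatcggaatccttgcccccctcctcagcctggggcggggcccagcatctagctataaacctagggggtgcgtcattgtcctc

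The search ran on both strands of the whole window of 300 bases, for 5 motifs. The loose MEF2 form was found in 1 of the 3 windows, that of Ppp1r3a, and in 3.84% of 33469 windows of that length in the table. Its first base there lies 63 bases before the start. The E-box CAGCTG was in the windows of Myh7 and Ppp1r3a and in 15.1% of all windows. In that of Ppp1r3a it lies after the start and so outside the stretch shown. The MCAT motif CATTCC (14.2% of all windows) and the GATA motif AGATAA (11.6%) were in none of the 3, and the loose CArG form (CC, any 6 bases, GG), which 71.5% of all windows hold, was in those of Myh7 and Tnnt1. A match is a run of letters and says nothing of binding.

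Below the highest concentrations the genes could be tested in 9 heart comparisons, 10 to 250 ppm of 1,2-DCB and 1 to 400 ppm of 1,4-DCB. Of 63 tests with edgeR none was called, 5 had an unadjusted p below 0.05, and the smallest adjusted p was 0.21. DESeq2 and limma voom also called 0 of the 63. By edgeR the background was the same, at 0.00% of all probes called in each of the 9. Of all probes, DESeq2 called 0 to 9 in a comparison and voom 0 to 1. At 1 ppm of 1,2-DCB, whose heart values were already known, edgeR called none, beside 5.64% of all probes. The number of probes called there became 3 without heart F101, 21 without F102, 0 without both, 0 in a fit of that group and the controls alone, and 213 to 250 without F103, F104 or F105. Myl2 there had a log2 difference of -0.47 ± 0.20, with hearts F101 and F102 below every control and the other 3 at 302458, 332338 and 337522 CPM, inside the control range. Voom called Myl2, by -0.72, and edgeR did without F103 or without F105, by -0.63 each.

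Several values below the top are given for their size. Tnnt1 at 150 ppm of 1,4-DCB was at 5.90, 9.10, 9.11, 9.41 and 11.5 CPM, with 4 of 5 hearts above every control and a log2 difference of 0.80 ± 0.22 (edgeR adjusted p = 0.36). At 400 ppm it was back at 4.87 to 7.64 CPM, a difference of 0.22 ± 0.23. Tcap at 400 ppm of 1,4-DCB was at 72.9 to 112.7 CPM, with all 5 hearts above the control mean and a difference of 0.52 ± 0.17 (edgeR adjusted p = 0.21).

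Myh7 at 400 ppm of 1,4-DCB was at 774, 851, 1004, 1032 and 1422 CPM, all below the control mean of 1983 and none below the lowest control, with a log2 difference of -0.96 ± 0.39 (edgeR adjusted p = 0.37). Nol3 at 250 ppm of 1,2-DCB was at 26.6 to 32.7 CPM, all 5 hearts above the control mean, with a difference of 0.38 ± 0.13 (edgeR adjusted p = 0.54). The concentrations of 500 ppm of 1,2-DCB and 400 ppm of 1,4-DCB are not matched. Set side by side without a test, Myh7 differed from its controls by 1.98 and -0.96, Tnnt1 by 1.304 and 0.22, Tcap by 0.85 and 0.52, Nol3 by 0.83 and 0.02, Mef2c by 0.47 and -0.04, and Ppp1r3a by 0.28 and 0.00 log2 units.

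**Figure D3:**
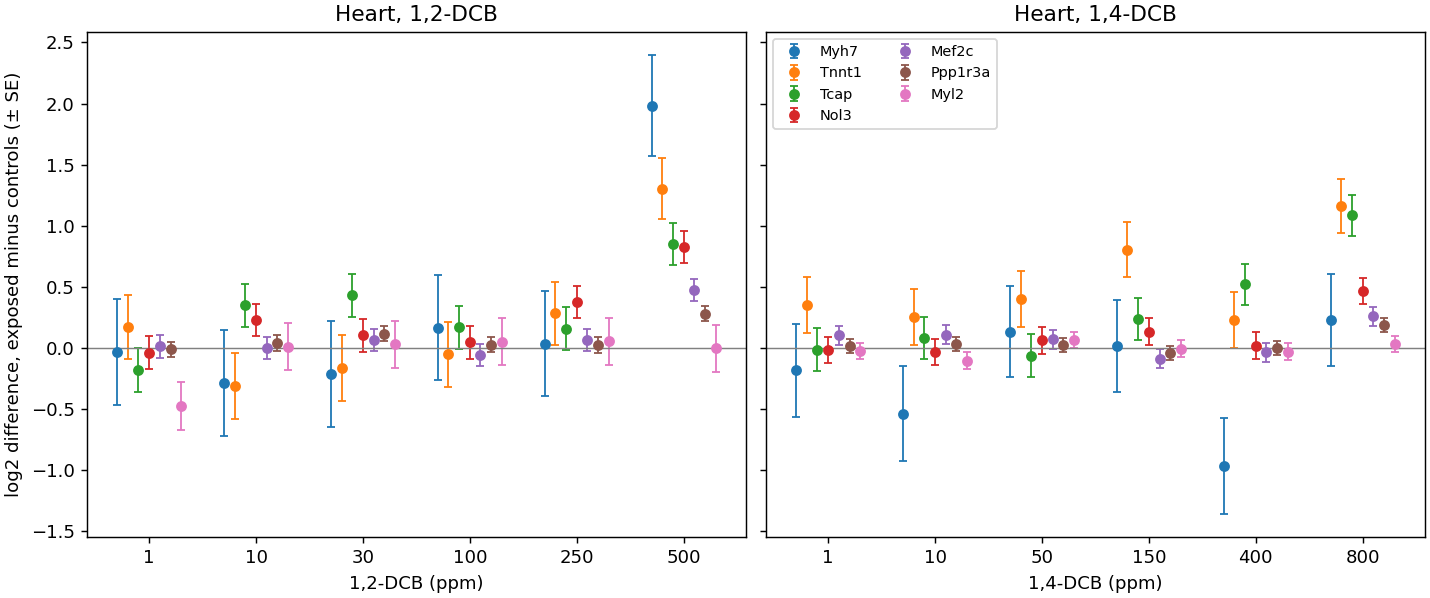
Log2 difference between exposed and control hearts (vertical axis, ± SE) for the 7 genes at each concentration in ppm (horizontal axis), 1,2-DCB at left and 1,4-DCB at right. Values lie on both sides of 0 below 250 ppm at left and up to 400 ppm at right, where they run from -0.96 to 0.52. At 250 ppm at left all 7 lie above 0, from 0.02 to 0.38. At the last concentration 6 genes lie above 0 at left, Myh7 at 1.98, while Tnnt1 and Tcap lead at right at 1.16 and 1.09.

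The compounds shared 1 and 10 ppm, and there the change of 1,4-DCB hearts against their controls was compared with that of 1,2-DCB hearts. None of the 7 genes was called by edgeR, where 1.03% of 2137 probes were called at 1 ppm and 1.17% at 10 ppm. The 22 probes at 1 ppm became 1 without 1,2-DCB heart F101, 12 without F102, 0 without both, and 82 to 97 without F103, F104 or F105. The 25 at 10 ppm became 0 without 1,2-DCB heart F201, 8 to 13 without 1,4-DCB heart F202, F203, F204 or F205, 2 at a filter of 20 CPM, and 0 by voom. These were 14 of 56 such member tests over the 5 tissues. Of the 14, 1 had an unadjusted p below 0.05, and DESeq2 called 0. That 1 was Myl2 at 1 ppm, by 0.45 (95% interval 0.03 to 0.86), a group that holds hearts F101 and F102. For Myh7 the difference between compounds was -0.15 at 1 ppm, with a 95% interval of -1.295 to 0.99, and -0.25 at 10 ppm, from -1.39 to 0.90 log2 units. For Ppp1r3a it was 0.03 at 1 ppm, from -0.13 to 0.20, and -0.01 at 10 ppm, from -0.18 to 0.15. These intervals leave room for differences over 2-fold in Myh7 but not in Ppp1r3a.

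The control hearts of the compounds were also compared with each other, to show how far unexposed sets stood apart. None of the 7 genes was called by edgeR among 2.95% of probes called. CPM were scaled within each compound and the differences come from 1 joint scaling, so they do not follow from the means given. Tcap came nearest, at 96.6 ± 25.4 CPM (SD, n = 10) in 1,2-DCB controls and 63.8 ± 16.5 in 1,4-DCB controls, a log2 difference of -0.47 ± 0.14 (edgeR adjusted p = 0.060). DESeq2 called Tcap, at an adjusted p of 0.039. Without F101 and F102 in the fit edgeR called Tcap and Myl2, by -0.47 and 0.22. Ppp1r3a was at 170 ± 7.9 and 142.9 ± 10.0 CPM, a difference of -0.12 ± 0.05 (edgeR adjusted p = 0.18), and these 2 genes were those with an unadjusted p below 0.05. Myh7 was at 1383 ± 513 and 1983 ± 1033 CPM, a difference of 0.65 ± 0.33 (edgeR adjusted p = 0.31).

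Other genes of the same machinery are described for the highest concentrations from lists of named genes, as counts with no test of the list. Genes named because they were called were picked after their values were seen. Of 19 sarcomere and Z-disc probes tested beside the members, 2 were called higher and 1 lower at 500 ppm of 1,2-DCB, and 2 higher and 0 lower at 800 ppm of 1,4-DCB. At 500 ppm these were Myot, a Z-disc protein, at 8.44 ± 2.55 against 4.00 ± 1.78 CPM, Myoz2 (calsarcin), at 1466 ± 200.8 against 1078 ± 125.3 CPM, and, lower, the cardiac actin Actc1 at 2987 ± 411 against 4292 ± 806 CPM. At 800 ppm they were the troponin Tnnt3, at 9.36 ± 1.302 against 6.31 ± 1.471 CPM, and the tropomyosin Tpm2, at 66.8 ± 20.4 against 36.1 ± 10.7 CPM. The list's median log2 difference was 0.31 at 500 ppm and 0.14 at 800 ppm, beside -0.02 and -0.01 over all probes. The members of the list with the highest control levels, besides Actc1, were the muscle LIM protein Csrp3, at 0.30 and 0.25, and the essential light chain Myl3, at 0.07 and 0.13, neither called.

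Around Nol3, 2 of 24 probes for regulators of cell death were called higher and 0 lower with each compound. Bnip3, a mitochondrial death and mitophagy protein induced by low oxygen, was at 160 ± 11.4 against 49.2 ± 9.1 CPM at 500 ppm of 1,2-DCB and 63.7 ± 8.5 against 42.96 ± 6.08 CPM at 800 ppm of 1,4-DCB. The other was Mdm2, which restrains p53, at 500 ppm, and Cycs, cytochrome c, at 800 ppm. The most abundant gene of the list, the survival factor Mcl1, differed by 0.03 and -0.22, and Bnip3l, a relative of Bnip3, by 0.09 and -0.08, none called. The median over the list was -0.03 with either compound.

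Of 24 glycogen and fuel probes, 2 were called higher at 500 ppm of 1,2-DCB, the lysosomal glucosidase Gaa and Ppp1r3b, a glycogen-targeting relative of Ppp1r3a, at 23.9 ± 6.4 against 13.8 ± 3.2 CPM. With 1,4-DCB at 800 ppm 1 was, Hadhb of fatty acid oxidation. Of 15 probes for cardiac stress and load, 1 was called higher with each compound, Lgals3 (galectin-3) at 172 ± 25.1 against 114.4 ± 12.4 CPM at 500 ppm and Spp1 (osteopontin) at 26.5 ± 9.9 against 12.2 ± 3.0 CPM at 800 ppm. None of the 6 and 5 probes tested for partners of MEF2 was called, and of 7 and 6 calcium handling probes 1 was, Srl (sarcalumenin), at 800 ppm. The most abundant genes of these lists were not called apart from Lgals3. Creatine kinase Ckm differed by 0.13 and 0.01, lipoprotein lipase Lpl by 0.12 and -0.02, and the muscle enolase Eno3 by -0.06 and -0.36. Fstl1 and Egr1 differed by 0.03 and 0.44 at 500 ppm and by -0.13 and 0.77 at 800 ppm. The MEF2 activating kinase Mapk14 and the calcineurin subunit Ppp3cb lay within 0.04 of 0 with both compounds, and Nfatc3 differed by 0.14 and -0.12. Hrc, a calcium-binding protein of the sarcoplasmic reticulum, differed by 0.05 and 0.06, and the gap junction protein Gja1 by -0.35 and -0.32. Casq1 of the same list, the skeletal calsequestrin, differed by -0.64 ± 0.23 at 500 ppm and 0.59 ± 0.22 at 800 ppm and was called at neither. None of these 4 lists held a probe called lower.

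Fibroblast markers were lower in the same hearts, which matters because in bulk tissue fewer cells of a type and less RNA per cell cannot be told apart. The 8 fibroblast markers tested summed to 1091 to 1638 CPM at 500 ppm of 1,2-DCB against 2680 to 4383 CPM in controls, with 0 called higher and 5 lower. Col3a1 was at 439 ± 99.2 against 1764 ± 352 CPM. For 1,4-DCB at 800 ppm the sum was 2279 to 2446 against 2464 to 3370 CPM, with 1 of 8 lower. Cardiomyocyte markers (5 tested) summed to 7454 to 8984 CPM at 500 ppm, inside the control range of 6720 to 10703. At 800 ppm they summed to 8331 to 9834 against 7097 to 9056 CPM. Actc1, called lower at 500 ppm, is part of this sum. Endothelium, macrophage and other cell lists were scored but are not described here. The part of cell content in the levels of the 7 genes was not tested.

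Within groups, where exposure does not differ, the genes most like each member were found over the 80 hearts by Pearson's r of log2 CPM after subtracting the group's mean, among 929 probes. These r are descriptions across libraries that share TMM scaling. Tcap was most like Dbp (r = 0.71) and Nr1d2 (0.62), both transcription factors of the circadian clock. The r of Tcap and Dbp was 0.75 within the 1,2-DCB hearts without F101 and F102 and 0.75 within the 1,4-DCB hearts. Dbp was at 503.8 to 834.6 CPM at 500 ppm of 1,2-DCB against 87.3 to 405.2 CPM in controls, and at 599 to 876 against 60.1 to 176 CPM at 800 ppm of 1,4-DCB, so no exposed heart overlapped a control in this clock gene. No source used here gives the hour of collection, and the part of it in Tcap was not tested.

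Next for Tcap was Ddit3 (0.56). Myh7 and Nol3 were both most like Nrap, a protein of growing myofibrils (r = 0.67 and 0.59). Nrap was at 258 to 418 CPM at 500 ppm of 1,2-DCB against 127.3 to 221.4 CPM in controls, a log2 difference of 0.86. At 800 ppm of 1,4-DCB, where Myh7 stayed within its control range, Nrap was at 218 to 232.2 CPM. Each of those hearts was above the highest control at 217.6 CPM, and the log2 difference of 0.28 was not called. Nol3 was next most like Csrp3, the muscle LIM protein (0.57). The likeness of Myl2 to Myl3, the essential light chain (0.88), rested on rats F101 and F102, since r was 0.25 over the other 78 hearts. For Tnnt1, Mef2c and Ppp1r3a the highest r was 0.45 with Pik3r3, 0.38 with Rnps1 and 0.47 with Adhfe1. Among the 21 pairs of members the highest r without F101 and F102 was 0.44, for Myh7 with Nol3, and 0.39 followed for Tnnt1 with Nol3.

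In control rats 6 of the 7 genes were highest in heart. Myh7, Myl2, Tcap and Ppp1r3a were at or near 0 in kidney and liver. Myl2 in the 1,2-DCB controls was at 331357 CPM in heart and at 0.680 CPM or less on average in each of the other tissues, whose ranges overlapped. In the 1,4-DCB lung controls Myl2 averaged 1.62 CPM because rat F6 had 11.1, beside a median of 0.281, and the same lung had Tcap at 2.17 and Myh7 at 2.37 CPM. Ppp1r3a had a second level in lung, at 3.35 ± 0.61 CPM (SD, n = 10) for 1,2-DCB and 3.47 ± 0.82 (n = 8) for 1,4-DCB, above every ovary value. Kidney and liver were listed at 0 for this gene in every control rat, and it was at 0.138 and 0.274 CPM in ovary.

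Tnnt1 was the exception, with 8.21 ± 2.81 CPM in ovary against 6.86 ± 2.34 in heart of the 1,2-DCB controls (SD, n = 10), ranges that overlapped in both control sets. Myl2 took 32.6% and 35.2% of counts in the 1,2-DCB and 1,4-DCB control hearts, so heart and ovary CPM stand on unlike totals. The order of heart and ovary for Tnnt1 on totals without Myl2 was not tested. Liver followed at 1.88 ± 0.43 CPM, then lung and kidney at 0.950 and 0.668 CPM, each overlapping the next. Nol3 ran from 22.7 ± 4.7 CPM in heart to 7.19 in lung and 4.35 in ovary, which overlapped, then 0.533 in kidney and 0.0251 in liver. Mef2c ran from 80.7 ± 12.6 CPM in heart to 45.8 ± 6.9 in ovary, 29.3 ± 4.7 in lung, 9.10 ± 3.0 in kidney (n = 9) and 0.485 in liver, with overlap between ovary and lung. In the 1,4-DCB controls its heart and ovary ranges overlapped as well.

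**Figure D4:**
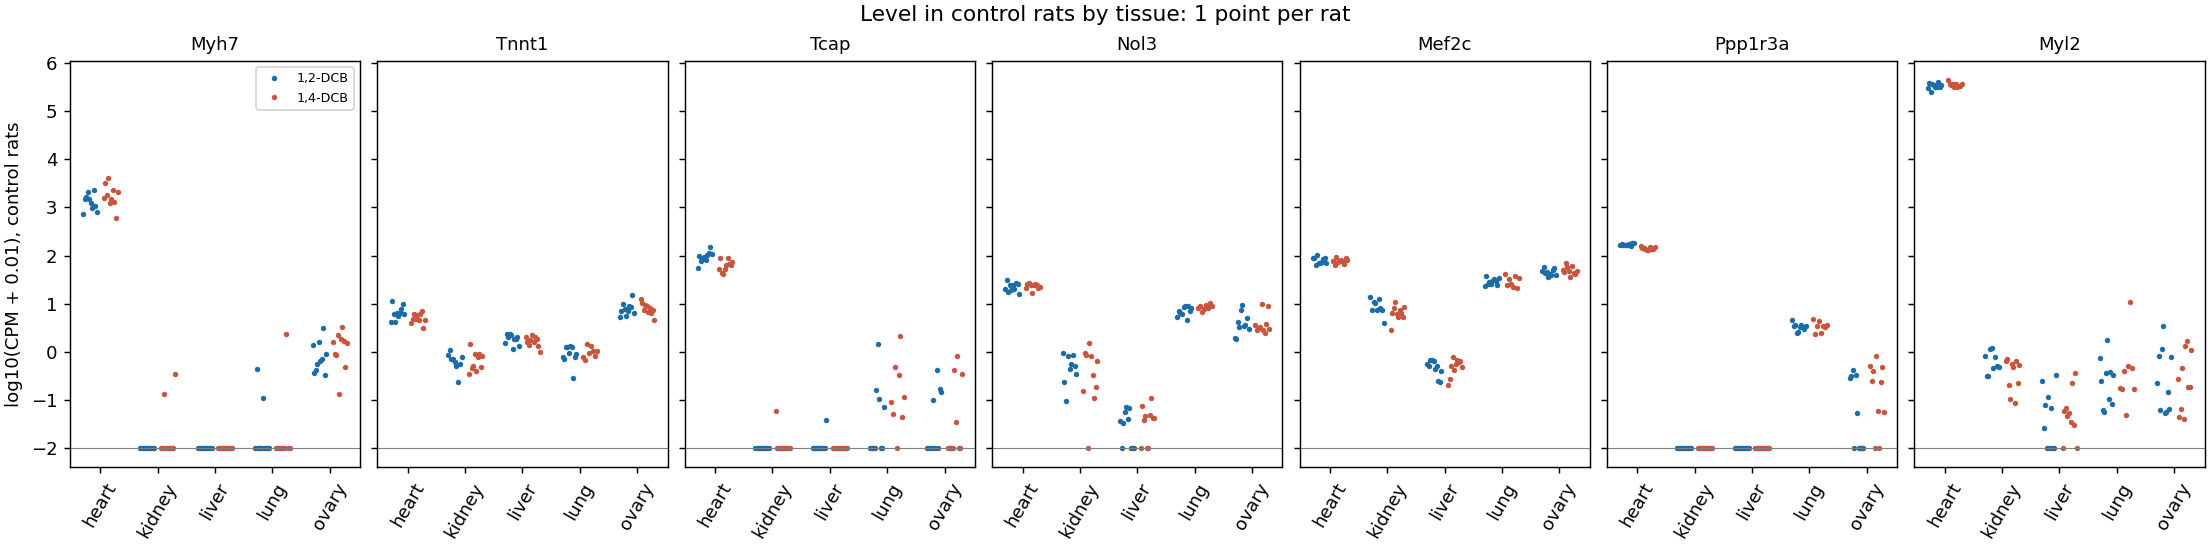
Level of each gene in control rats as log10(CPM + 0.01) (vertical axes) in the 5 tissues (horizontal axes), 1 point per rat, with 1,2-DCB controls in blue and 1,4-DCB controls in red. The grey line marks a level of 0, where Myh7, Tcap and Ppp1r3a lie in most kidneys and livers, and ovary has a higher mean than heart for Tnnt1 alone.

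Outside the heart most of the genes were low. Passing the filter on low counts were 4 of the 7 in kidney, 7 in lung, 5 with 1,2-DCB and 7 with 1,4-DCB in ovary, and 3 and 2 in liver. Over 40 comparisons below the top concentrations and 195 tests, edgeR called none, 10 had an unadjusted p below 0.05, and DESeq2 called 1. The share of all probes called by edgeR was 0.00% in most of them. It reached 2.13%, 6.44% and 24.8% in liver at 100 ppm of 1,2-DCB, 400 ppm of 1,4-DCB and 250 ppm of 1,2-DCB. In kidney, liver, lung and ovary comparisons with 1 to 9 calls it was 0.381%, 0.0846%, 0.215%, 0.0495%, 0.0434% or 0.0435%. For the difference between compounds at 1 and 10 ppm no member was called in these tissues by edgeR, where 0.00% of probes were called in each of the 8 comparisons. DESeq2 called 0, and 4 member tests had an unadjusted p below 0.05 in edgeR. Of these 3 were in lung at 1 ppm, Myh7, Myl2 and Tcap, by -6.14, -4.46 and -4.04. There 1,2-DCB lung F101 had 45, 97 and 51 counts of them, and the other lungs of its group at most 3, 24 and 5. At such counts no fold is read from these differences.

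Liver Nol3 was at 0.868, 1.35, 1.42, 1.56 and 1.61 CPM in the 5 livers at 500 ppm of 1,2-DCB, with at least 31 counts in each, and at 0 to 3 counts in the 10 controls, of which 4 had 0. With the controls at or under a floor of 3 counts per library (0.0765 CPM on average), Nol3 was at least 17.8-fold higher in the exposed livers, at 1.36 ± 0.30 CPM (SD, n = 5). At 250 ppm the livers had 3, 6, 8, 1 and 4 counts, and the edgeR adjusted p was 0.054, with 24.8% of probes called. DESeq2 gave 0.025 there. With 1,4-DCB the livers had 0 to 10 counts at 800 ppm and 0 to 5 in controls, levels at which no fold is given.

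Tnnt1 lay the other way in liver from heart. At 500 ppm of 1,2-DCB it was at 0.798, 0.896, 1.403, 1.516 and 1.520 CPM, and its controls ran from 1.13 to 2.38 CPM, so 2 of 5 livers were below every control. Livers at 800 ppm of 1,4-DCB were at 0.512, 0.620, 0.937, 1.16 and 1.17 CPM against 0.9752 to 2.22 CPM, with 3 of 5 below. The log2 differences were -0.61 ± 0.19 and -0.95 ± 0.20. At these concentrations, treated as used in choosing the genes, 2 members were called in liver with 1,2-DCB (Nol3 higher, Tnnt1 lower) and 1 with 1,4-DCB (Tnnt1 lower). There 67.8% and 34.9% of probes were called in either direction.

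**Figure D5:**
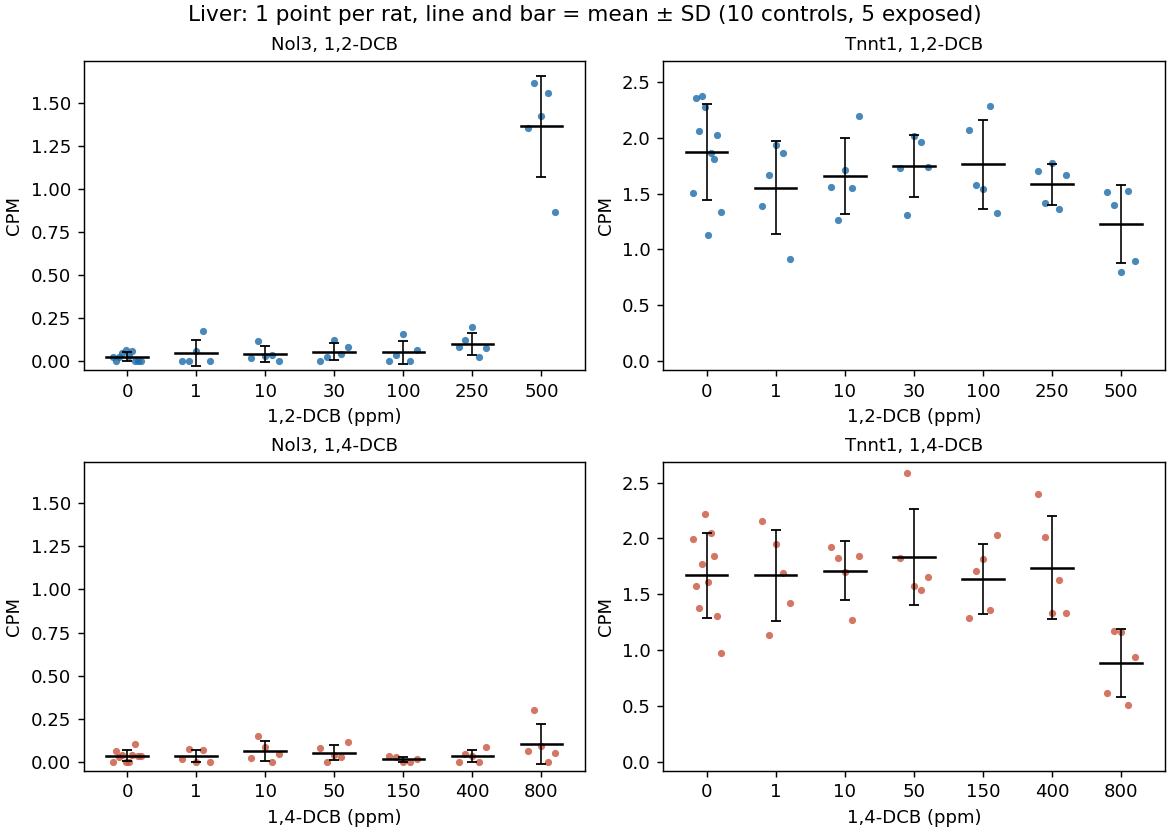
CPM of Nol3 (left) and Tnnt1 (right) in liver by concentration in ppm, with 1,2-DCB above and 1,4-DCB below, 1 point per rat with the mean ± SD of 10 controls or 5 exposed rats. Nol3 leaves the floor in all 5 livers at 500 ppm of 1,2-DCB, at 0.868 to 1.61 CPM, and Tnnt1 has its lowest mean in the last group of each row.

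EdgeR called no member in kidney, lung or ovary at the highest concentrations, where 16.4% and 5.03% of kidney probes, 8.85% and 5.91% of lung probes and 2.91% and 8.47% of ovary probes were called for 1,2-DCB and 1,4-DCB. Mef2c in kidney at 800 ppm of 1,4-DCB was at 8.68, 8.99, 11.02, 11.7 and 12.7 CPM against 2.80 to 10.9 CPM in controls, a log2 difference of 0.65 ± 0.20. DESeq2 and limma voom called it there, by 0.65 and 0.67, and edgeR did without control F2, F3 or F9. At 500 ppm of 1,2-DCB it was at 11.2 to 14.9 against 4.00 to 13.7 CPM, a difference of 0.42 ± 0.24. Ppp1r3a in lung was at 0.767 to 3.28 CPM in 4 rats at 500 ppm against 2.51 to 4.71 CPM, and at 1.07 to 3.33 CPM in 5 rats at 800 ppm against 2.39 to 4.80 CPM. Its log2 differences there were -0.54 ± 0.28 and -0.64 ± 0.27, opposite in sign to those in heart. Tnnt1 in kidney was at 0.282 ± 0.157 against 0.668 ± 0.243 CPM at 500 ppm, a difference of -1.21 ± 0.54, and in lung at 1.75 ± 0.69 (n = 4) against 0.950 ± 0.326 CPM, a difference of 0.86 ± 0.37. Myh7, Myl2 and Tcap, where tested in these tissues at the highest concentrations, had standard errors of 0.61 to 1.49 log2 units. Tcap in lung at 500 ppm was called by edgeR without control F5, by 3.73. Its counts were 1, 4, 14 and 34 in the exposed lungs, 30 in control F5 and 0 to 3 in the other controls. At such counts no fold is read from that call.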

How the data were processed

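The authors deposited whole-number read counts per probe, described with the deposit as adjusted for attenuation (the damping of very abundant probes), for 2654 probes of 2603 symbols in 399 libraries. No source used here says which probes were attenuated or by how much, and an error in that adjustment would rescale a probe in all libraries alike. Reads were aligned with Bowtie 1.3.1, per the submitters' processing notes. The 390 libraries that the submitters did not mark as not used were analysed. Groups came from the labels. The labels number rats within a group, and separate animals gave separate libraries.

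Counts were tested with edgeR 4.0.16 (R 4.3.3) by the quasi-likelihood test with robust dispersion, TMM factors and filterByExpr. One fit held all libraries of a tissue and compound, or of a tissue for comparisons between compounds, and p-values were adjusted by Benjamini-Hochberg over all probes tested. A call is an adjusted p below 0.05. Values are CPM on TMM-scaled totals, so they compare rats within a gene and not genes with each other, whose probes have no length scale. Levels across tissues come from separate scalings. The test was checked on simulated counts. Alternatives were DESeq2 1.42.0, limma 3.58.1 voom, DESeq2 size factors, no filter, a 20 CPM filter on the mean, totals without Myl2, smaller fits, the unused libraries and each library left out. Leaving out the hearts that stood apart was chosen after seeing the data.

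The members and lists were chosen with earlier results of these data known. Besides the members, the text names the 3 most abundant genes of each pathway list in control hearts, the genes most like a member, and genes a result turns on. Likeness used log2(CPM + 0.5) among probes averaging 20 CPM or more. A fold against controls at or near 0 counts was taken against a floor of 3 counts per library. Control numbers 1 to 10 name different rats in each compound's set and pair nothing.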

Additional observations from a re-analysis of the deposited data

Results flagged for a closer look

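Single rats stood far from their group, by the ratio of their gap to the group's range, in 16 of the 230 groups of 4 to 10 libraries examined for the members, where chance gives about 1 in 20. In heart these were 6 of 98. Among hearts at 1 ppm of 1,2-DCB, Tcap was lowest in F102 at 52.59 CPM (others 88.1 to 100.7), Ppp1r3a lowest in F101 at 137.5 CPM (others 170 to 181) and Nol3 highest in F103 at 24.83 CPM (others 20.8 to 21.9). In 1,4-DCB hearts, Myl2 was highest in control F1 at 449779.9 CPM (others up to 370858). Tnnt1 was lowest in F105 at 1 ppm, at 3.949 CPM (others 6.78 to 7.76), and highest in F604 at 800 ppm, at 24.35 CPM (others 7.20 to 9.07).

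The other tissues gave the remaining 10. In kidney, Nol3 was at 1.346 CPM in F404 at 100 ppm of 1,2-DCB and Mef2c at 14.94 CPM in F603 at 500 ppm, both above their groups. In liver, Tnnt1 was highest in F302 at 50 ppm of 1,4-DCB, at 2.584 CPM. In lung, Mef2c was lowest in F105 at 1 ppm of 1,2-DCB, at 16.9 CPM. Lung Ppp1r3a was highest in 1,2-DCB control F1, at 4.709 CPM, and lowest in F303 at 50 ppm of 1,4-DCB, at 3.072 CPM. In ovary, Tnnt1 was highest in 1,2-DCB control F8 at 15.05 CPM and Mef2c in F302 at 30 ppm of 1,2-DCB at 56.19 CPM. Ovarian Nol3 was highest in F401 of both compounds, at 16.16 CPM at 100 ppm of 1,2-DCB and 7.125 CPM at 150 ppm of 1,4-DCB, which are different rats.

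In 6 cases every exposed rat lay on one side of the control mean in one tissue and every one on the other side in another. These differences between tissues were not tested. Mef2c had log2 differences of 0.06476 in heart and -0.1629 in lung at 30 ppm of 1,2-DCB, and 0.1076 and -0.1049 at 10 ppm of 1,4-DCB. Ppp1r3a had 0.2805 in heart and -0.5373 in lung at 500 ppm of 1,2-DCB, and 0.191 and -0.6426 at 800 ppm of 1,4-DCB. Tnnt1 had 0.2843 in ovary and -0.6126 in liver with 1,2-DCB at 500 ppm, and 1.159 in heart and -0.947 in liver with 1,4-DCB at 800 ppm.

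In the 9 libraries marked as not used, 4 of 63 member values were above every control. Lung F204 at 10 ppm of 1,4-DCB, with a total of 0.123 M counts, had Myl2 at 48.78 CPM from 6 counts and Mef2c at 65.04 CPM from 8. Lung F504 at 400 ppm of 1,4-DCB had Tnnt1 at 1.649 CPM, and kidney F1 of the 1,2-DCB controls had Mef2c at 14.78 CPM from 5 counts.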

How the results depend on the processing

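Of 1096 alternative values for 41 results, 1051 kept their side of the threshold, or their count within 1.5 times. A count of 0 that stayed 0 is among those kept. Direction was checked only for genes called in the main fit, and 0 of their values reversed. Myl2 in heart at 500 ppm of 1,2-DCB, not called, ran from -0.04 to 0.05 with each library left out. The count of 6 members at 500 ppm of 1,2-DCB in heart was among those kept. That comparison is treated as used in choosing the genes, so this count describes them and tests nothing. At 800 ppm of 1,4-DCB the count of 5 became 3 at a filter of 20 CPM, which loses the call of Ppp1r3a and removes the Tnnt1 probe. It became 3 in a fit of the exposed and control hearts alone, and 3 to 5 with each library left out, both through Mef2c and Ppp1r3a. Ppp1r3a alone lost its call with no filter, with totals without Myl2, and without exposed F604, control F4 or control F5. Mef2c alone lost it without control F10. In the count of members, losing 1 such call falls within 1.5 times. At 1 ppm of 1,2-DCB voom called 1, and leaving out F103 or F105 gave 1, with a range of 0 to 1, all Myl2. Kidney with 1,4-DCB went from 0 to 1 (Mef2c at 800 ppm) by DESeq2 and 1 by voom, and 0 to 1 with a library left out (controls F2, F3 or F9). Liver went from 2 and 1 to 0 and 0 at the 20 CPM filter, which removes these probes. Lung with 1,2-DCB ranged from 0 to 1 (Tcap, without control F5). Between control hearts the count of 0 became 1 by DESeq2, 1 at the 20 CPM filter, 2 without F101 and F102, and 0 to 1 with a library left out (1,2-DCB controls F1 or F2, 1,4-DCB controls F6 or F10). With the replicate block on the control libraries it was 0. Same-numbered controls had correlations of -0.13 to 0.18, and 1 sample of these correlated best with its own number. Other causes were not tested. Liver Nol3 in controls, at 0 to 3 counts, is at the limit of depth.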
